A study of Mus musculus with 3 samples.

Results

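This account concerns 9 mouse genes, 4 that encode interferons (Ifna5, Ifnb1, Ifnl3 and Ifng) and 5 that encode interferon receptor chains (Ifnar1, Ifnar2, Ifngr1, Ifngr2 and Ifnlr1), out of 19505 measured genes. They were taken by their symbol in the annotation of the array, and each was represented by 1 probe set. RNA came from plasmacytoid dendritic cells (pDCs) of wild-type male BALB/c mice, 4 to 5 weeks old, grown from femur and tibia marrow for 6 to 9 days in medium with Flt3 ligand at 100 ng/mL, then matured with CpG oligodeoxynucleotides and sorted. There were 3 arrays, for pDCs treated with oxymatrine (a Sophora alkaloid), pDCs treated with astragaloside IV (an Astragalus saponin) and pDCs labelled as control. The compounds were given for 12 h and the chemokine CCL21, a ligand of CCR7, for 1 h after that. The labels give no dose and are silent on CCL21 or vehicle in the control, so the compound and the CCL21 step cannot be told apart in a comparison with control. The study asked how both compounds hold back the migration of these cells.

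Interferons are secreted proteins that switch on antiviral genes in the cells they reach. The alpha and beta proteins of type I bind a receptor made of IFNAR1 and IFNAR2, the gamma protein of type II binds IFNGR1 and IFNGR2, and the lambda proteins of type III bind IFNLR1 paired with IL10RB. The receptor chains carry JAK kinases, which phosphorylate STAT proteins. Plasmacytoid dendritic cells are known for their large output of type I and type III interferon after TLR7 or TLR9 has met nucleic acid, and CpG oligodeoxynucleotides act through TLR9. In these cells the signal passes through MyD88 to the transcription factor IRF7.

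Ifna5 and Ifnb1 lie in the interferon gene cluster of chromosome 4 and were the genes of the 9 whose values moved farthest. The stretches upstream of both are shown because IRF factors are known to act on type I interferon genes through upstream sequences of this kind, and NF-kappaB on Ifnb1. Both come from RefSeq (GRCm38.p6) and run 5′ to 3′ on the strand of the gene, with capitals for matches to the IRF motif AANNGAAA or the kappaB motif GGGAANTTC.
Ifna5, chr4:88835288-88835384, plus strand, from 237 to 141 bases before the annotated start: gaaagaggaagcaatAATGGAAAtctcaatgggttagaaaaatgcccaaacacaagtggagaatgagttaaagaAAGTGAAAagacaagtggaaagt
Ifnb1, chr4:88522887-88522968, minus strand, from 174 to 93 bases before the annotated start: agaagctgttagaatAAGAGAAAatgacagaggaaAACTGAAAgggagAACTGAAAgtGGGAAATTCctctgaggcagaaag
Each match was sought on both strands of the window that runs from 250 bases before to 50 bases after the start, and no match to one motif overlapped a match to the other in these windows. The IRF motif was present in 23.9% of 32851 such windows, in all 12 windows of numbered Ifna genes, and in those of Ifna5, Ifnb1 and Ifng among the 9 genes. It was found in 0 of the 5 receptor gene windows. The kappaB motif was present in 1.08% of all windows and, among the 9 genes, in that of Ifnb1. A match describes these letters and is not a measured binding site.

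The values are log2 levels after RMA, in which 1 unit is a 2-fold difference. They are comparable between arrays for 1 gene, and levels of different genes are not set against each other because their probes differ. All 9 genes lay above the background level in all 3 arrays. That level was 5.28, below which lay 95% of 1399 receptor genes for odours and pheromones that blood cells do not normally use. Each group is a single array, so no test was made and no difference has a replicate error. As a yardstick, each difference stands beside the SD of the same difference over the 533 or 534 genes of like level, which is a spread over genes and not over samples. RMA gave many values that are exactly equal, with 56% of the named probe sets at the same value in at least 2 arrays.

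None of the 9 genes reached a 2-fold difference in any of the 3 comparisons, and none reached 1.5-fold (0.585 on the log2 scale). Over all 10674 genes above background, 0.281% were 2-fold apart and 3.31% were 1.5-fold apart between oxymatrine and control. Between astragaloside IV and control the shares were 0.197% and 2.13%, and between oxymatrine and astragaloside IV they were 0.159% and 2.58%. These shares are small, so a count of 0 among 9 genes does not set the 9 apart. Both comparisons with control use the same control array, and both that involve oxymatrine use the same oxymatrine array.

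**Figure D1:**
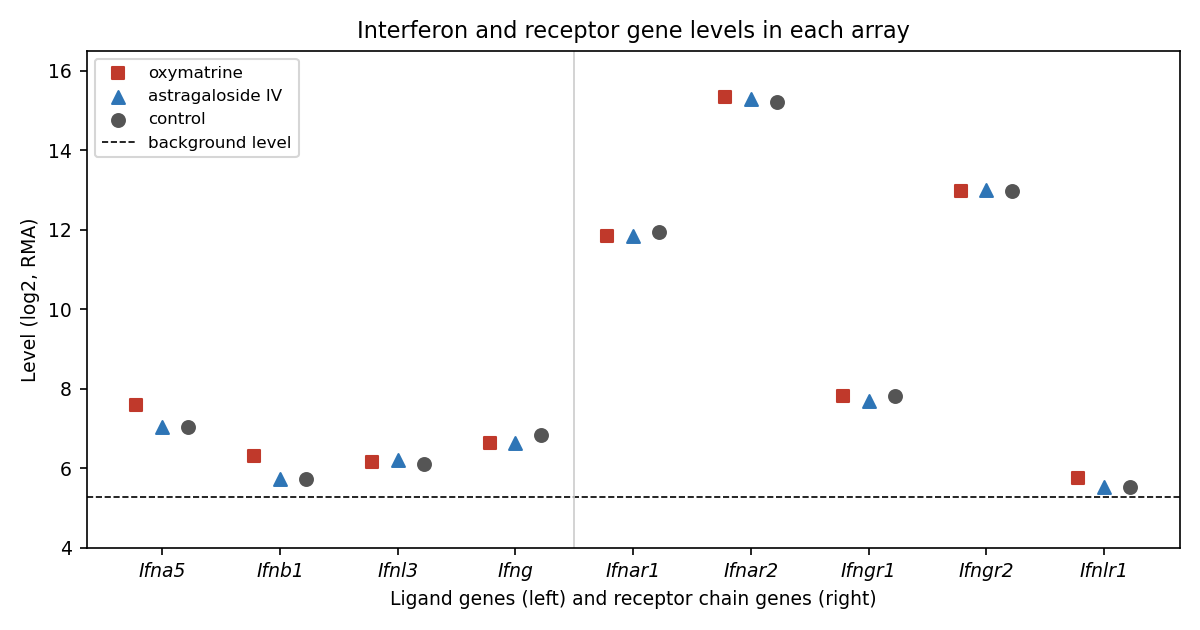
Log2 levels of the 9 genes in the oxymatrine, astragaloside IV and control arrays, 1 point per array, with the background level of 5.28 as a dashed line. Ifna5 and Ifnb1 stood higher in the oxymatrine array than in the other arrays, while the 3 points of every other gene lay within 0.23 of each other.

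Ifna5 encodes an interferon alpha. Its log2 level was 7.59 with oxymatrine, 7.03 with astragaloside IV and 7.03 in control. The oxymatrine value was the high one, and the other arrays were equal, as they were for 28.9% of genes of like level. The difference from control was 0.56 with oxymatrine, a ratio of 1.47, which was 2.02 times the SD of 0.28 among genes of like level. Of those 533 genes, 40, or 7.50%, were at least as far apart. Against astragaloside IV the difference was also 0.56, and 30 of 533 genes, or 5.63%, were at least as far apart. Because the astragaloside IV and control values were equal, this is the same difference and not a second observation.

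Ifnb1 encodes interferon beta, usually the first type I interferon to be made by an infected cell. It showed 6.31 with oxymatrine, 5.74 with astragaloside IV and 5.74 in control on the log2 scale. As with Ifna5, the oxymatrine array was high and the other arrays were equal, as they were for 31.1% of genes of like level. The difference of oxymatrine from control was 0.57, a ratio of 1.49 and 1.86 times the SD of 0.31 of genes of like level, with 44 of 533 genes, or 8.26%, at least as far apart. Against astragaloside IV it was 0.57, again not a second observation, and 25 of 533 genes, or 4.69%, were at least as far apart. The gene was close to background, 1.03 log2 units above it with oxymatrine, 0.46 with astragaloside IV and 0.46 in control.

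Ifnl3 encodes an interferon lambda, which acts mainly on epithelial cells. Its log2 level was 6.16 with oxymatrine, 6.22 with astragaloside IV and 6.10 in control, so the 3 arrays lay within 0.12 of each other. The difference from control was 0.06 with oxymatrine and 0.12 with astragaloside IV, against SDs of 0.31 and 0.25 over genes of like level. The gene was close to background, 0.88 log2 units above it with oxymatrine, 0.95 with astragaloside IV and 0.83 in control.

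Ifng encodes interferon gamma, a product mainly of NK and T cells. It stood at a log2 level of 6.64 with oxymatrine, 6.64 with astragaloside IV and 6.84 in control. The control array was the high one, and both treated arrays were equal, each with a difference of -0.19 from control. Of genes of like level, 38.2% were at least as far apart with oxymatrine and 29.8% with astragaloside IV. Of 20 measured markers of T and NK cells, 9 had a mean above background, as did 10674 of all 19505 measured genes. The defining T cell genes Cd3d, Cd3e and Cd3g and the NK cell genes Ncr1, Klrb1c and Nkg7 were below background in every array. Klrk1, Klrd1, Gzma and Gzmb, of the same list, were above it in every array. The mean level of the 20 markers was 5.70 with oxymatrine, 5.59 with astragaloside IV and 5.69 in control. Of the 9 above background, 2 were higher, 5 lower and 2 equal with oxymatrine against control, and 1 was higher, 4 lower and 4 equal with astragaloside IV against control, with medians of -0.04 and 0. After quantile normalisation 3 were higher and 6 lower with oxymatrine, and 6 higher and 3 lower with astragaloside IV. Il2rb, the beta chain of the interleukin 2 receptor, differed from control by -0.84 with oxymatrine and -1.01 with astragaloside IV, Cd5 by -0.45 in both and Cd8a by -0.32 in both, while Cd4 was higher by 0.23 with oxymatrine and 0.24 with astragaloside IV. The part of such cells in the Ifng values was not tested, and in RNA from a whole sample fewer cells of a type and less RNA per cell cannot be told apart.

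The other interferon genes were near or below background. Of 21 further measured genes of the family, 20 had a mean over the 3 arrays below the background level, and 7 had the same value in all 3 arrays. The mean of Gm13271, a predicted gene of the type I cluster, was above it, at a log2 level of 5.32 in every array. The log2 levels of the 20 ran from 2.98 to 5.08 with oxymatrine, from 2.56 to 5.41 with astragaloside IV and from 2.93 to 5.24 in control. Ifnl2, the other lambda gene, showed 5.08, 5.41 and 5.08 in the order oxymatrine, astragaloside IV and control, and so was above the background level with astragaloside IV. Ifna1 was at 4.88, 4.99 and 5.24, Ifna2 at 4.49, 4.49 and 4.10, and Ifna4 at 3.59, 3.65 and 3.79 in the same order. The Ifna genes resemble one another closely in sequence, so probes for one may also bind transcripts of another, and the value given for Ifna5 is uncertain in that respect.

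The receptor genes lay closer together across the arrays than Ifna5 and Ifnb1 did. Ifnar1 encodes the chain of the type I receptor that carries TYK2. It had log2 levels of 11.84 with oxymatrine, 11.84 with astragaloside IV and 11.95 in control. Both treated arrays were equal and differed from control by -0.11, and 36.1% and 24.3% of genes of like level were at least as far apart with oxymatrine and astragaloside IV. Ifnar2 encodes the chain that carries JAK1, and its log2 level was 15.34 with oxymatrine, 15.28 with astragaloside IV and 15.22 in control. The differences from control were 0.12 and 0.06, or 1.06 and 0.74 times the SD of genes of like level, opposite in sign to those of Ifnar1.

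Ifngr1 encodes the chain of the gamma receptor that binds the ligand, and Ifngr2 the chain needed for signalling. Ifngr1 was at a log2 level of 7.83 with oxymatrine, 7.68 with astragaloside IV and 7.83 in control, so the astragaloside IV array was the low one, by -0.15. Ifngr2 showed 12.97, 12.99 and 12.97 in the same order, a span of 0.01. Ifnlr1, the lambda receptor chain, had 5.75 with oxymatrine, 5.52 with astragaloside IV and 5.52 in control. Its oxymatrine value was higher than control by 0.23, and 32.4% of genes of like level were at least as far apart. Ifnlr1 lay 0.47, 0.24 and 0.24 log2 units above background in the same order, which leaves its detection uncertain.

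**Figure D2:**
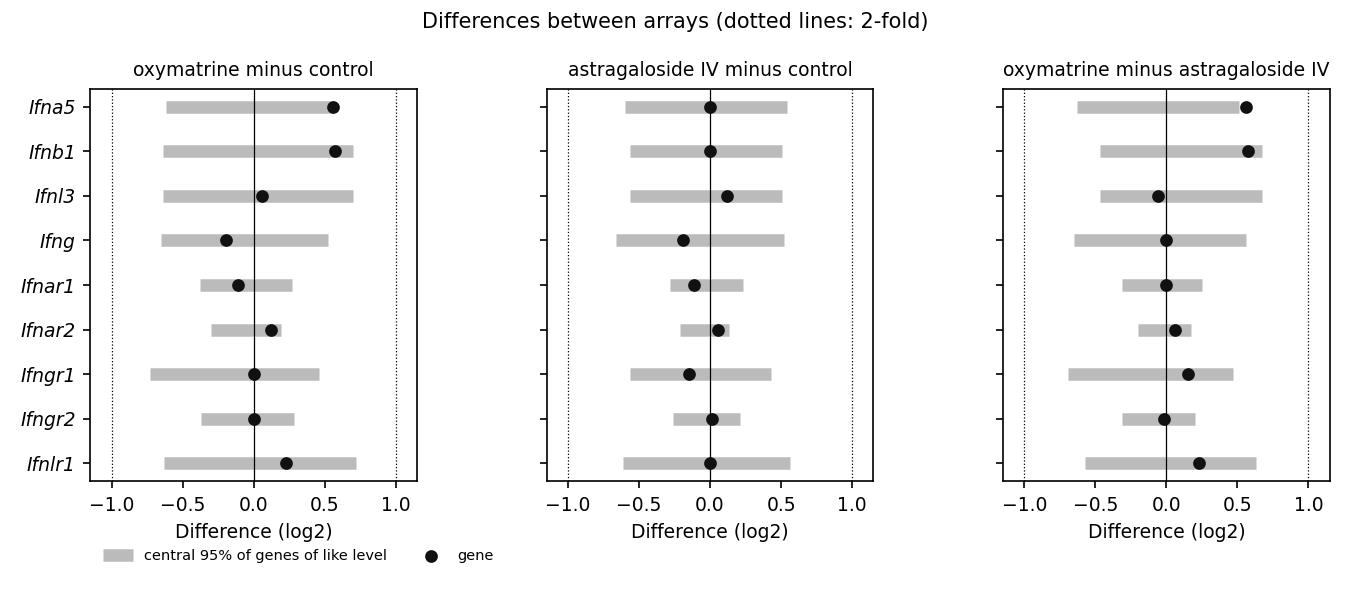
Log2 differences of the 9 genes in the 3 comparisons (points), on grey bars that span the central 95% of the same difference over genes of like level, with dotted lines at 2-fold. All points lie well inside the 2-fold lines. Ifna5, at 0.56, lies at the upper end of its bar for oxymatrine against control and just beyond the bar, which ends at 0.51, for oxymatrine against astragaloside IV, and Ifnb1, at 0.57, lies inside both bars, which end at 0.70 and 0.67.

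Across the 9 genes, 5 were higher, 2 lower and 2 equal with oxymatrine against control, with a median difference of 0.06. With astragaloside IV against control 3 were higher, 3 lower and 3 equal, with a median of 0. Over all genes above background 29.7% were higher and 46.0% lower with oxymatrine, and 31.4% and 40.8% with astragaloside IV, with a median of 0 in both. After quantile normalisation, 7 of the 9 were higher and 2 lower with oxymatrine, and 57.3% of all genes were higher and 42.3% lower. With astragaloside IV 5 of the 9 were then higher and 4 lower, as were 60.9% and 38.5% of all genes. A shift of this kind parts the many exact ties, so the counts by sign are fragile. These shares over all genes are also the baseline for the counts by sign of every list in this account. Ifnar2, Ifnar1 and Ifngr2 are neighbours on chromosome 16 in RefSeq, together with Il10rb and with 0 other protein-coding genes between them.

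Ifnb1 had the widest range of the 9 genes over the arrays. The genes with the most similar pattern, by the root mean square distance of log2 values centred on each gene's own mean over the 3 arrays, were the olfactory receptor gene Olfr1045 (distance 0.0016), Ifna5 (0.0057) and the cadherin gene Cdh18 (0.0102). Olfr1045 had 6.33 with oxymatrine, 5.76 with astragaloside IV and 5.76 in control, and Cdh18 had 5.87, 5.28 and 5.28 in the same order. Each of these genes was thus equal in the astragaloside IV and control arrays and higher with oxymatrine. A pattern over 3 arrays holds few values, and the olfactory receptor gene stood nearer to Ifnb1 than Ifna5 did.

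Of 12 measured JAK and STAT pathway genes, which carry the receptor signal, all above background, 2 were higher, 7 lower and 3 equal with oxymatrine, and 3 were higher, 5 lower and 4 equal with astragaloside IV, with medians of -0.02 and 0. None was 1.5-fold apart from control, against 3.31% of all genes above background with oxymatrine and 2.13% with astragaloside IV. After quantile normalisation 8 were higher and 4 lower with oxymatrine, and 7 were higher and 5 lower with astragaloside IV. Tyk2, the kinase bound to IFNAR1, had log2 levels of 14.08 with oxymatrine, 14.11 with astragaloside IV and 14.10 in control. Jak1 was at 11.75, 11.81 and 11.83 and Jak2, the kinase of IFNGR2, at 15.23, 15.20 and 15.20 in the same order. Stat2, a transcription factor of the type I response, stood at 12.45, 12.48 and 12.46, and Irf9, its DNA-binding partner, at 9.75, 9.81 and 9.85.

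Of 12 measured class II cytokine receptor genes, the family of all 5 chains, 8 were above background, and 4 were higher, 2 lower and 2 equal with oxymatrine, and 3 higher, 3 lower and 2 equal with astragaloside IV, with medians of 0.06 and 0. After quantile normalisation 7 were higher and 1 lower with oxymatrine, and 5 higher and 3 lower with astragaloside IV. Il10rb, the partner of IFNLR1, was at a log2 level of 12.78 with oxymatrine, 12.80 with astragaloside IV and 12.80 in control, a difference of -0.02 and 0 from control. Il20rb, a chain of the interleukin 20 receptor, had 5.65, 5.95 and 5.33 in the same order. Its difference of 0.62 from control with astragaloside IV was the 1 past 1.5-fold among the 8 above background, against 2.13% of all genes. Il20ra, another chain of that receptor, was below background in every array, at 2.59, 3.52 and 2.63.

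Among 16 genes that restrain interferon receptors, 4 were higher and 12 lower with oxymatrine, and 4 higher, 8 lower and 4 equal with astragaloside IV, with medians of -0.07 and -0.02. After quantile normalisation 6 were higher and 9 lower with oxymatrine, with a median of -0.02, and 8 were higher and 8 lower with astragaloside IV. Over all genes above background 46.0% were lower with oxymatrine and 40.8% with astragaloside IV, and 42.3% and 38.5% after quantile normalisation. Socs3, an inhibitor of JAK kinases best known for its action on IL-6 type receptors, was the 1 gene of the pathway lists that was 2-fold apart from control. Its log2 level was 7.21 with oxymatrine, 7.99 with astragaloside IV and 8.28 in control, a difference of -1.06 and -0.29 from control. Over all genes above background, 0.281% were 2-fold apart from control with oxymatrine and 0.197% with astragaloside IV. Usp18, which blocks IFNAR2, had 13.88, 13.88 and 13.92, and Socs1, an inhibitor of type I and gamma signals, had 8.33, 8.38 and 8.38 in the same order.

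Of 27 measured genes of the machinery that makes interferon, all above background, 9 were higher, 11 lower and 7 equal with oxymatrine, and 6 were higher, 13 lower and 8 equal with astragaloside IV, with a median of 0 in both. After quantile normalisation 20 were higher and 7 lower with oxymatrine, and 15 were higher and 12 lower with astragaloside IV. Irf7, the main switch of interferon alpha genes, had log2 levels of 14.84 with oxymatrine, 14.95 with astragaloside IV and 15.05 in control, and the differences of -0.21 and -0.10 compare with SDs of 0.11 and 0.08 over genes of like level. Irf7 was thus lower in both treated arrays, and Ifna5 and Ifnb1 were higher in the oxymatrine array alone. A link between these values was not tested. Cgas, a sensor of cytosolic DNA, differed by -0.68 with oxymatrine and -0.60 with astragaloside IV, against SDs of 0.25 and 0.23. It was the 1 gene of this list past 1.5-fold in each. Over all genes above background the shares were 3.31% and 2.13%, so 1 of 27 does not set the list apart. Rela, an NF-kappaB subunit, differed by 0.37 and 0.18, against SDs of 0.11 and 0.08. Ikbke, an IRF kinase, differed by -0.35 and -0.20, against SDs of 0.20 and 0.18.

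No measured gene of the lists induced by interferon was 1.5-fold apart from control in either treated array. Over all genes above background, the shares were 3.31% with oxymatrine and 2.13% with astragaloside IV. A count of 0 does not set these lists apart. Of 34 measured genes induced by type I interferon, 4 were higher, 25 lower and 5 equal with oxymatrine, with a median of -0.08, and 10 were higher, 16 lower and 8 equal with astragaloside IV, with a median of 0. After quantile normalisation 15 were higher and 18 lower with oxymatrine, with a median of -0.02, and 20 were higher and 13 lower with astragaloside IV. Over all genes above background 29.7% were higher and 46.0% lower with oxymatrine, and 57.3% and 42.3% after quantile normalisation. With astragaloside IV these shares were 31.4% and 40.8%, and then 60.9% and 38.5%. Oasl2, an antiviral gene, differed by 0.49 and 0.43, the antiviral GTPase gene Mx2 by 0.44 and 0, Parp9 by -0.58 and -0.41, and Oas2, a sensor of double-stranded RNA, by -0.28 and -0.35, each with oxymatrine first. Of 24 genes induced by interferon gamma, 7 were higher, 10 lower and 7 equal with oxymatrine, and 8 higher, 10 lower and 6 equal with astragaloside IV, with a median of 0 in both. After quantile normalisation 16 were higher and 8 lower with oxymatrine, and 17 were higher and 7 lower with astragaloside IV. Gbp2, a guanylate-binding protein gene, differed by 0.04 with oxymatrine and 0.33 with astragaloside IV, and Ido1, which degrades tryptophan, by -0.29 and -0.12.

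**Figure D3:**
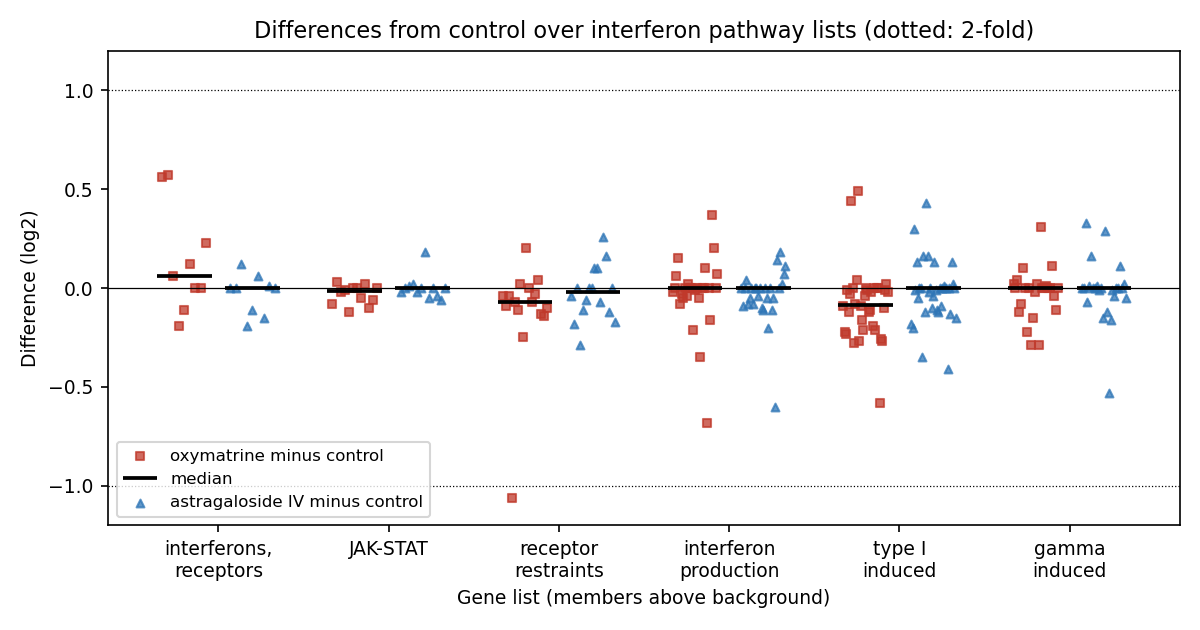
Log2 differences from control of each gene above background in 6 lists, with oxymatrine (squares) and astragaloside IV (triangles), bars at the median and dotted lines at 2-fold. The square below the lower dotted line is Socs3, at -1.06, and the 2 squares above 0.5 in the first list are Ifna5 and Ifnb1.

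Of 21 measured pDC markers, 18 were above background in all 3 arrays, among them Siglech, Bst2 and Tcf4. Pacsin1, Cd209d and Dntt were below it in every array. Bst2 is also in the list of genes induced by type I interferon. Some markers of other cells were above background as well. They were 8 of 10 for type 1 and 7 of 10 for type 2 conventional dendritic cells, 10 of 10 for monocytes and macrophages and 3 of 7 for B cells. Of the monocyte and macrophage markers, Adgre1 had log2 levels of 14.12 with oxymatrine, 13.98 with astragaloside IV and 14.12 in control. Lyz2 was at 13.88 in every array, and Csf1r at 12.83, 12.86 and 12.86 in the same order. Some of these genes are shared with pDCs. Of all 19505 measured genes, 10674 were above background, so a count near that share does not set a list apart. The count for B cells was below that share, and those of the other lists, pDC markers included, were above it. Below background in every array were Xcr1 and Clec9a of the type 1 list, Cd209a and Mgl2 of the type 2 list, and Cd79a, Pax5 and Cd22 of the B cell list. Cadm1 and Tlr3, Sirpa and Itgam, and Cd79b, of the same lists, were above it in every array. The arrays were alike, with Pearson's r across genes between 0.9973 and 0.9977. The mean level of the 21 pDC markers was 9.54 with oxymatrine, 9.53 with astragaloside IV and 9.58 in control. Of the 18 above background, 4 were higher, 11 lower and 3 equal with oxymatrine against control, and 3 higher, 8 lower and 7 equal with astragaloside IV, with medians of -0.01 and 0. After quantile normalisation 12 were higher and 6 lower with oxymatrine, and 9 higher and 9 lower with astragaloside IV. Single markers lay farther apart, Smim5 with a difference from control of 1.32 with oxymatrine and 0.83 with astragaloside IV, the transcription factor gene Spib with -0.48 and 0, and Ptprc, the CD45 gene, with -0.43 and -0.22. Of the 8 type 1 conventional dendritic cell markers above background, 1 was higher and 7 lower with oxymatrine, and 1 higher, 6 lower and 1 equal with astragaloside IV, with medians of -0.22 and -0.10. After quantile normalisation 2 were higher and 6 lower in each comparison with control. Over all genes above background 46.0% were lower with oxymatrine and 40.8% with astragaloside IV, and 42.3% and 38.5% after quantile normalisation. Among the 8 markers were Itgae, an integrin gene, with -0.49 and -0.73, and Tlr3, the 1 that was higher in both, with 0.10 and 0.53. The medians of the type 2 and of the monocyte and macrophage markers were 0 in both comparisons, and those of the B cell markers were 0.08 with oxymatrine and 0 with astragaloside IV. The part of these markers in the interferon values was not tested.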

How the data were processed

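The authors deposited log2 expression levels for 3 arrays, each level summarising the probes of a probe set. The submitters' processing notes name RMA, which corrects background, equalises arrays by quantiles and can return exact ties. No version of it is named in the labels. That the scale is log2 was inferred from values of 1.78 to 19.7. Of 28846 probe sets, 19572 had 1 gene symbol in the platform annotation. The brightest stood for each of 55 genes with several.

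Each comparison is a difference of 2 array values, with no test. Genes were counted at 2-fold, and genes of like level came from 20 bins of equal size. The 9 genes and all lists were chosen with earlier results of these data known. The rule named all 9, every measured gene of the interferon, receptor and JAK-STAT lists, and up to 4 of each other list with the widest differences. Not all of the genes it named are given in the text. The other genes given were picked after their values were seen. Alternatives were other thresholds, filters, scalings and the mean over probe sets. Python 3.11.15, numpy 2.4.6, pandas 2.3.3, statsmodels 0.14.6 and matplotlib 3.10.9 were used. The calculations were tested on simulated data.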

Additional observations from a re-analysis of the deposited data

Results flagged for a closer look

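The genes above background that the rule named, marker lists aside, were searched for arrays with oxymatrine and with astragaloside IV on opposite sides of the control array. There were 5 such genes. The share of all genes split in this way was not counted, so the 5 cannot be set against it. Other genes of the lists were split in this way too. Among them, Ifit2 differed from control by -0.23 with oxymatrine and 0.30 with astragaloside IV, and Rsad2 by -0.27 and 0.16. The difference between the treated arrays was not tested, since each is a single array. Nos2, the inducible nitric oxide synthase, differed from control by 0.31 with oxymatrine and -0.53 with astragaloside IV, a difference of 0.84 between the treated arrays. Il10ra, the interleukin 10 receptor chain, differed by 0.17 and -0.03, or 0.20 between them. Pias4, an inhibitor of STAT proteins, differed by -0.03 and 0.26, or -0.29 between them. Stat2 differed by -0.01 and 0.02, and Tyk2 by -0.02 and 0.01, each -0.03 between the treated arrays. That is less than the SDs of 0.13 and 0.10 over genes of like level. None of the 9 interferon and receptor genes lay on opposite sides of control in this way, again without a share over all genes beside it.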

How the results depend on the processing

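No setting brought any of the 9 genes past 2-fold. The count stayed at 0 in all 3 comparisons at 1.5-fold, and with median centring, quantile normalisation or lowess centring. It was also 0 at 3-fold, without a filter on dim genes, with the 99th percentile filter and with the mean over probe sets. Those settings could not have raised it, since all 9 genes already passed the filter and each has 1 probe set. Of 108 differences of single genes recomputed under scalings and the mean over probe sets, 108 moved by less than the SD of genes of like level. Many of these could not have moved farther. The mean over probe sets leaves genes with 1 probe set unchanged, and median centring moves all genes of an array by the same small amount. With oxymatrine against control, Ifna5 ranged from 0.53 to 0.60 and Ifnb1 from 0.55 to 0.57, and the upper end for Ifna5 lies past 1.5-fold. Small differences could change sign, as for Ifngr1, from -0.03 to 0.05 with oxymatrine. The count of all genes 2-fold apart depended on the filter. Without it 90 genes were 2-fold apart with oxymatrine against control, 79 with astragaloside IV against control and 82 between the treated arrays, against 30, 21 and 17 with it. With the 99th percentile filter, a level of 5.87, the counts were 17, 11 and 9. The mean of Ifnlr1 lay below that level in this setting, and Ifnb1 passed only through its oxymatrine value of 6.31, against 5.74 with astragaloside IV and 5.74 in control. Having 1 array in each group limits all of these values.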
